A study of Homo sapiens with 12 samples.

Results

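Immune checkpoint ligands are proteins by which a tumor cell restrains T cells, natural killer cells or phagocytes, and their mRNA was examined on 12 arrays of lung adenocarcinoma cells in which miR-197 had been supplied or blocked. The set held 9 genes, CD274 (which encodes PD-L1), PDCD1LG2, CD276, VTCN1, CD47, PVR, LGALS9, TNFRSF14 and NT5E. It was chosen by name, as every noncontrol probe to which the scanner output gave one of these gene names, and this found 20 of 50599 probes. Of these, 15 probes of 7 genes were well above background on at least 3 arrays and were tested with the other probes that met this condition (33712 in all), and 13 met it on each of the 12 arrays. The probes of PDCD1LG2 and VTCN1 and the dimmest of TNFRSF14 were not tested. Probes of 1 gene are called the first, the second and the third in order of their mean signal, and since they share a target they are not independent.

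The established lines were A549, PC14 and the cisplatin-resistant PC14CDDP, for which PC14 is the parental line. Each line was transfected at 25 nM with pre-miR-197, a synthetic precursor that supplies the miRNA, with its negative control NC (AllStar-NC), with LNA-miR-197, a locked nucleic acid inhibitor of the miRNA, or with its control LNA-NC (LNA-miR-NC). Total RNA (100 ng per transfection) was labeled with Cy3 and hybridized to 1 array, so the 3 lines were the replicates of a transfection, and the 4 arrays of a line were differently transfected cultures of 1 line and not independent lines. Because PC14CDDP derives from PC14 and shares a slide with it, the 3 lines are not 3 independent units. Neither the p-values nor a count such as 3 of 3 lines allows for this. Slide 1 carried A549, and slide 2 carried PC14 in row 1 and PC14CDDP in row 2, and every transfection took the same slide column in each line, so that A549 and its slide, PC14CDDP and its row, and a transfection and its column cannot be told apart. Levels are given as the percent of the 75th percentile of the noncontrol spots of an array, which was 613.3 to 719.0 signal units, and differences are on the log2 scale. The dimmest spots that still counted as well above background lay between 1.06% and 1.93% on this scale.

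Per array, 55.8% to 63.0% of all probes passed as well above background. The keratin probes KRT8, KRT18 and KRT19 were well above background on all 12 arrays, whereas EPCAM and CDH1 were so on all 4 A549 arrays, on 3 and 2 PC14 arrays and on 0 PC14CDDP arrays. Of 5 lung markers, NAPSA and SFTPC were well above background on all 12 arrays, NKX2-1 on 0 A549 arrays and on all others, SFTPA1 on 1 array and SFTPB on 0, and NAPSA was highest in A549. Of the leukocyte markers, PTPRC, CD3D, CD14, ITGAM and CD68 were well above background on all 12 arrays, CD3E on 7 and MS4A1 on 2. The signal was 31.3 to 87.6 units for PTPRC, 14.7 to 47.8 for CD3D, 16.9 to 165 for ITGAM, 31 to 1360 for CD14 and 300 to 2930 for CD68. CD14 and ITGAM were highest on an A549 array, and CD68 and CD3E (216 units) on a PC14CDDP array. The part of other cells or of nonspecific hybridization in these signals was not tested.

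PD-L1 and PD-L2, the product of PDCD1LG2, bind the inhibitory receptor PD-1 on T cells. B7-H3 (CD276) and B7-H4 (VTCN1) are further members of the B7 family, and CD47 binds SIRPA on macrophages and restrains phagocytosis. PVR binds TIGIT, CD96 and the activating receptor CD226, galectin-9 (LGALS9) binds TIM-3, and TNFRSF14 (HVEM) engages BTLA and CD160. NT5E, also called CD73, is the ectoenzyme that makes adenosine, which dampens lymphocytes, from AMP. In lung cancer PD-L1 is known for its induction by interferon gamma through JAK and STAT proteins and for its use as a marker for antibodies against PD-1 and PD-L1.

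The miRNA that was supplied or blocked is shown first because every transfection contrast turns on it. The labels name no arm of its hairpin, and the older name miR-197 is that of the 3p arm, which RefSeq places at chr1:109598940-109598961 on the plus strand of GRCh38.p14. Capitals mark the seed, bases 2 to 8, which 1 of the 2370 human mature miRNAs of the table carried.
hsa-miR-197-3p: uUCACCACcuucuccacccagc
The CD274 promoter is shown because CD274 was the called ligand after LNA-miR-197 and the study made a reporter from its promoter. These are the 250 bases before the RefSeq start of CD274, chr9:5450292-5450541 on the plus strand of GRCh38.p14, and capitals mark matches to a pair of the motifs searched.
CD274 promoter: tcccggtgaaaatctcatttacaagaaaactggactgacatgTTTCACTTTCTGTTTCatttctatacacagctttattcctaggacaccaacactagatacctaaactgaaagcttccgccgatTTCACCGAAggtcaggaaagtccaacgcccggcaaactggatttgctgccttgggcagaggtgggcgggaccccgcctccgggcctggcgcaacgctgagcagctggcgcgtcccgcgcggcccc
The STAT motif TTCNNNGAA matched once, 125 bases before the start, and its variants TTCNNGAA and TTCNNNNGAA did not match. The letters of an interferon response element core, TTTCNNTTTC, matched at 208 and 202 bases before the start, and these matches overlap each other. Both strands of the same window were searched in 35116 promoters, of which 6.57% held TTCNNNGAA, 6.62% held TTCNNGAA, 5.38% held TTCNNNNGAA and 3.02% held TTTCNNTTTC. RefSeq promoters were found for 8 of the 9 genes, the exception being PDCD1LG2, and the one other match among them was TTCNNNNGAA in TNFRSF14, 219 bases before its start. A match is a run of letters and not a measured site. The paper's reporter held a longer stretch of the CD274 promoter. In PC14CDDP cells the paper reports less luciferase activity from it after STAT3 siRNA and more after LNA-miR-197.

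Of the array probes, 4 are shown because the comparisons of CD274, NT5E and LGALS9 turn on how probes of 1 gene behaved, with hg19 coordinates from the files. The second CD274 probe (A_33_P3381513) lies at chr9:5465546-5465605. The second NT5E probe (A_24_P316430) lies at chr6:86176992-86181005 and spans an intron. The first LGALS9 probe (A_33_P3420416) lies at chr17:25967739-25967798, and the second (A_23_P116557) lies at chr17:25974458-25975920 and spans an intron.
CD274 second probe: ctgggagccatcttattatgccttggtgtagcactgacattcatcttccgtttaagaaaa
NT5E second probe: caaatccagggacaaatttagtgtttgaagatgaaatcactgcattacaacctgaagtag
LGALS9 first probe: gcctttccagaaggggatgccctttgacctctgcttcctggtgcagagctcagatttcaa
LGALS9 second probe: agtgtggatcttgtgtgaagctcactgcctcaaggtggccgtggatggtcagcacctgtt
The first CD274 probe (A_23_P338479) lies further downstream at chr9:5468310-5468369, and the first NT5E probe (A_24_P354715) at chr6:86204891-86204950. The single CD47 probe (A_23_P6935) lies on the minus strand at chr3:107778363-107779622 and spans an intron.

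The comparison of PC14CDDP with its parental line asked how the ligands differ in the resistant cells. The first CD274 probe and both NT5E probes were higher in PC14CDDP, whereas CD47, all 3 PVR probes, 2 of 3 LGALS9 probes and 1 of 2 tested TNFRSF14 probes were lower, and CD276 was not called. A probe was called when limma's adjusted p, by the Benjamini-Hochberg method over all probes tested, was under 0.05. This held for 11 of the 15 tested probes of the set, 4 higher and 7 lower, beside 48.8% of all probes tested, and 6 of the 11 calls held under all alternative settings that gave a value. The second CD274 probe, 1 of the 4 and of the 6, was tested only because of its signal in PC14CDDP. The median log2 difference was -0.22 over the 15 probes and 0.044 over all probes tested. Of 5 epithelial markers, 3 were lower in PC14CDDP as well, EPCAM and CDH1 being well above background on 0 of its arrays and KRT19 lower by -2.12 (adjusted p = 0.000558), and the part of this difference in those of the ligands was not tested.

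CD274 stood apart in PC14CDDP under every transfection. For the first CD274 probe, A549 read 6.14% after NC, 5.79% after pre-miR-197, 5.2% after LNA-NC and 8.2% after LNA-miR-197. In PC14 the first CD274 probe read 3.69% after NC, 3.3% after pre-miR-197, 3.48% after LNA-NC and 8.75% after LNA-miR-197. PC14CDDP gave 25.4% after NC, 17.5% after pre-miR-197, 25.7% after LNA-NC and 74.8% after LNA-miR-197. The lowest PC14CDDP array was thus above the highest array of the other lines, and in each line LNA-miR-197 gave the highest of the 4 values. The log2 difference between PC14CDDP and PC14 was 2.79 (SE 0.22, 95% interval 2.29 to 3.29), a 6.92-fold higher signal, with an adjusted p of 2.81e-05, and it lay between 2.402 and 3.097 under the 4 transfections taken singly. It was 1.47 after normexp background correction and remained called. Against A549, PC14CDDP was higher by 2.28 (SE 0.22, adjusted p = 2.64e-05). A549 and PC14 were next to each other in the order of levels and differed by 0.51 (95% interval 0.004 to 1.01, adjusted p = 0.0694), which did not pass, but did with the filter on all arrays (adjusted p = 0.0465) and with LNA-miR-197 left out (0.71, adjusted p = 0.00639). Each array measured RNA pooled from a culture, so more cells with the transcript and more transcript per cell cannot be told apart.

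The second CD274 probe gave the same order for PC14CDDP. It was well above background on all 4 PC14CDDP arrays, with 6.72% after NC, 6.07% after pre-miR-197, 6.07% after LNA-NC and 11.8% after LNA-miR-197. In A549 and PC14 it was well above background on 1 array each, at 2.02% after pre-miR-197 in A549 and 2.25% after LNA-miR-197 in PC14, and the other 6 arrays read 0.64% to 1.49%. Here too no array of the other lines reached PC14CDDP. Without its PC14CDDP arrays this probe would not have been tested, and most of its readings in PC14 were at background, so the log2 difference of 2.51 between PC14CDDP and PC14 is a description, and it was 0.77 after normexp background correction.

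The comparison of LNA-miR-197 with LNA-NC asked which ligands respond when the miRNA is blocked. The first CD274 probe was the 1 of 15 tested probes that was called, beside 7.99% of all probes tested. The median log2 difference was -0.041 over the 15 probes and -0.01 over all probes tested. CD274 rose by 1.18 (SE 0.25, 95% interval 0.59 to 1.76), which is 2.26-fold, with an adjusted p of 0.0348, with a ratio of 1.54 in PC14CDDP, 1.33 in PC14 and 0.66 in A549. Whether the response differs between lines could not be tested with 1 array per line and transfection. The call held under 6 of 15 alternatives, among them the deposited values, which repeat the main fit. The difference was above 0 in all 15, but several of them change the test alone and leave the difference at 1.18. The call was lost with any line left out, where the difference was 0.99 to 1.43 and the adjusted p 0.0725 to 0.262, and with normexp background correction, where the difference was 0.61 (adjusted p = 0.0831). It was also lost with no filter (adjusted p = 0.0687), only the arrays compared (adjusted p = 0.208), the slide as a block (adjusted p = 0.81), no block and the methods' t-test. With NC in place of LNA-NC as the control, the difference was 1.07 (adjusted p = 0.0299). For the second CD274 probe the ratio was 0.96 in PC14CDDP, 0.71 in PC14 and -0.20 in A549, and its difference of 0.49 (95% interval -0.47 to 1.45, adjusted p = 0.492) did not pass; neither array of the A549 ratio was well above background.

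After pre-miR-197 no checkpoint ligand passed the test against NC. limma called 0 of the 15 probes, 3 had an unadjusted p under 0.05, and the methods' t-test gave 0 on both counts, beside 0.086% of all probes called by limma and 15.8% at an unadjusted p under 0.05. The median log2 difference was -0.031 over the 15 probes and 0.023 over all probes tested. The first CD274 probe was below NC in 3 of 3 lines, by -0.54 in PC14CDDP, -0.16 in PC14 and -0.084 in A549. Its difference of -0.26 (SE 0.25, 95% interval -0.84 to 0.32, adjusted p = 0.666) was about the size of its error. The second CD274 probe gave -0.15, -1.16 and 1.11 in the same lines, with readings near the background in A549 and PC14.

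The effect of the inhibitor minus that of the precursor was tested as 1 contrast. It was 1.44 for the first CD274 probe (SE 0.36, 95% interval 0.61 to 2.26) and above 0 in 3 of 3 lines, with an adjusted p of 0.114. limma called 0 of the 15 probes, 3 had an unadjusted p under 0.05, and the methods' t-test called 0 with 3 under 0.05, beside 0.0504% of all probes called by limma and 18.4% at an unadjusted p under 0.05. The other probes at an unadjusted p under 0.05 were the first of NT5E, at -1.24 (adjusted p = 0.104), and the second of LGALS9, at -0.57 (adjusted p = 0.231).

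**Figure D1:**
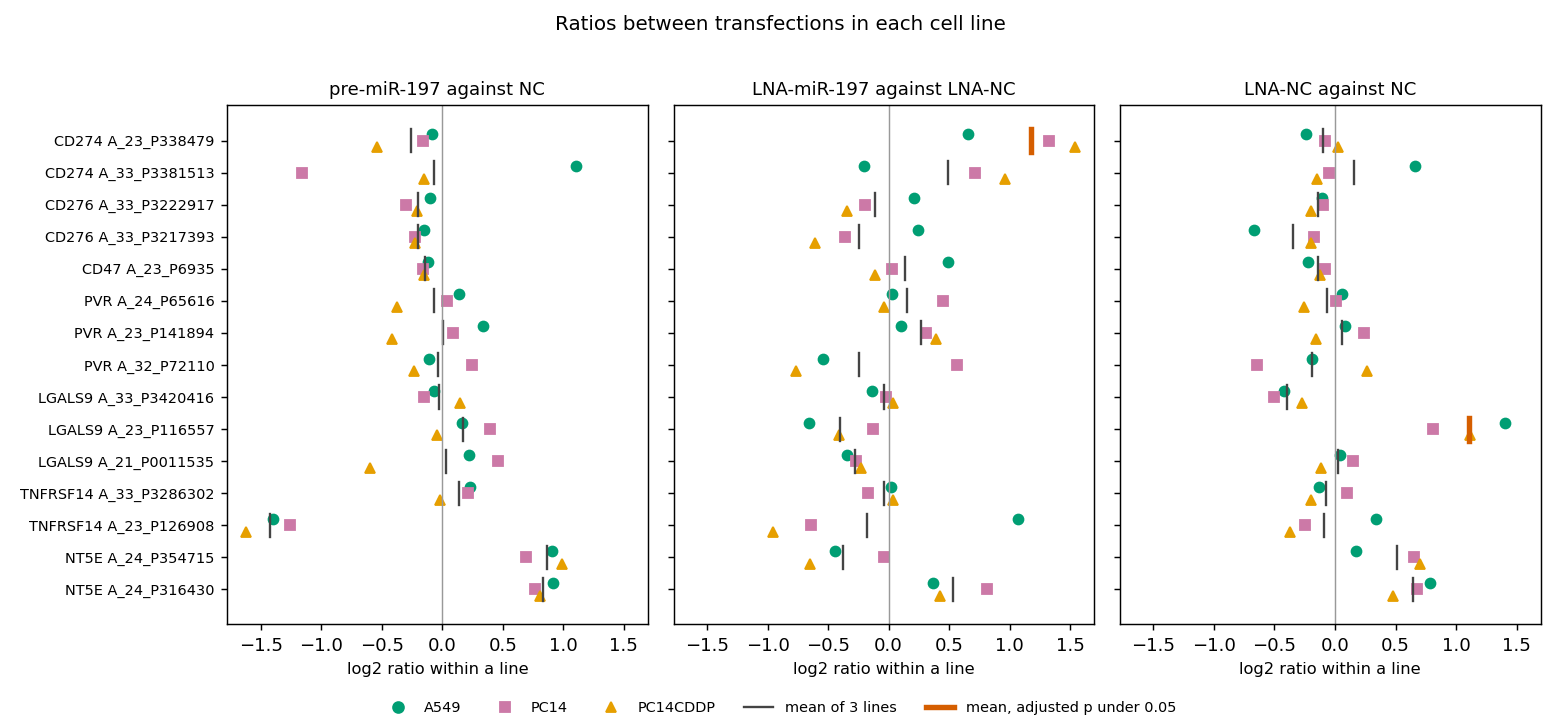
Log2 ratio of each tested probe in each line (horizontal axis, 1 point per line) for each transfected oligonucleotide against its control and for LNA-NC against NC; the vertical axis lists the probes. CD274 (first probe) reaches 0.66, 1.33 and 1.54 after LNA-miR-197, and both NT5E probes are above 0 in all 3 lines after pre-miR-197.

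PDCD1LG2, the gene of the other PD-1 ligand, was not well above background on most arrays. Its first probe (chr9:5557692-5557751) read 0.32% to 1.7% and was well above background on 0 arrays. Its second probe (chr9:5549556-5557628, spanning an intron) was well above background on 1 array, PC14 after pre-miR-197, at 1.53%, and read 0.26% to 1.29% on the others. VTCN1 was likewise near background. Its first probe (chr1:117686598-117686657) was well above background on A549 after pre-miR-197 alone, at 1.95%, and its second (chr1:117699525-117699584), which read 0.3% to 0.9%, on 0 arrays. No fold is given for these genes.

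CD276, a B7 family member whose probes were both well above background on all arrays, was lowest in A549. The first CD276 probe (chr15:74006791-74006850) read 1404% in A549 after NC, 1306% after pre-miR-197, 1301% after LNA-NC and 1500% after LNA-miR-197. For PC14 the values of CD276 were 2771%, 2254%, 2586% and 2260% in the same order. PC14CDDP gave CD276 values of 2486%, 2149%, 2164% and 1707%. No A549 array reached any array of the other lines, and PC14 and PC14CDDP overlapped. A549 was lower than PC14 by a log2 difference of -0.84 (SE 0.11, adjusted p = 0.000246), and PC14CDDP was above A549 by 0.62 (SE 0.11, adjusted p = 0.00134). PC14CDDP and PC14 differed by -0.22 (95% interval -0.48 to 0.040, adjusted p = 0.145). The second CD276 probe (chr15:73996699-73996758), at 17% to 27% in A549, 28.4% to 41.3% in PC14 and 21.8% to 38% in PC14CDDP, gave -0.69 (adjusted p = 0.00187), 0.50 (adjusted p = 0.00961) and -0.19 (adjusted p = 0.273) for the same pairs, and the second of these was not called by the methods' t-test. After pre-miR-197 both probes were below NC in 3 of 3 lines, by differences of -0.20 for each, with adjusted p of 0.494 and 0.573. LNA-NC was below NC in 3 of 3 lines at both as well, by -0.14 (adjusted p = 0.716) and -0.35 (adjusted p = 0.385). LNA-miR-197 against LNA-NC gave -0.11 (adjusted p = 0.635) and -0.24 (adjusted p = 0.348), and against NC the second probe was called, at -0.59 (adjusted p = 0.0404).

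CD47, the signal that restrains phagocytes, was highest in PC14. The CD47 probe read 563% in A549 after NC, 518% after pre-miR-197, 483% after LNA-NC and 679% after LNA-miR-197. In PC14 the CD47 signal was 1010%, 906%, 956% and 975% in that order. For PC14CDDP it was 721%, 649%, 660% and 609%. All PC14 arrays were above all others, whereas A549 and PC14CDDP overlapped. PC14CDDP was below PC14 by -0.55 (SE 0.11, adjusted p = 0.00345), and the ratio was between -0.48 and -0.68 under each transfection. A549 was below PC14 by -0.79 (SE 0.11, adjusted p = 0.000258), and PC14CDDP and A549 differed by 0.24 (95% interval -0.005 to 0.49, adjusted p = 0.0735), which passed with LNA-miR-197 left out (0.38, adjusted p = 0.00671) and with a trend and robust prior (adjusted p = 0.0378). After pre-miR-197 the ratio was -0.12, -0.16 and -0.15 in the 3 lines, and the difference of -0.14 (95% interval -0.43 to 0.14, adjusted p = 0.628) did not pass.

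PVR, the ligand of TIGIT and CD226, was lowest in PC14CDDP by the mean of each of its 3 probes. The first PVR probe (chr19:45166078-45166137) read 243% in A549 after NC, 267% after pre-miR-197, 253% after LNA-NC and 258% after LNA-miR-197. PC14 gave PVR values of 196.0%, 201.3%, 197.1% and 269.3% in this order. The PVR values of PC14CDDP were 171%, 132%, 144% and 140%. Every PC14CDDP array was below every other array, and A549 and PC14 overlapped. PC14CDDP was below PC14 by -0.55 (SE 0.13, adjusted p = 0.00733) and below A549 by -0.80 (SE 0.13, adjusted p = 0.000533). The second PVR probe (chr19:45162098-45162157) ranged from 16.5% to 25.9% in PC14CDDP, 30.8% to 45.1% in PC14 and 33.2% to 41.9% in A549, with differences of -0.79 (adjusted p = 0.00191) and -0.83 (adjusted p = 0.000775) for the same pairs. The third PVR probe (chr19:45168363-45168422) separated A549 further, at 23.3% to 38.8% against 6.62% to 12.3% in PC14 and 3.97% to 6.73% in PC14CDDP. By the third probe A549 was above PC14 by 1.77 (SE 0.22, adjusted p = 0.000139), where the first and second gave 0.25 and 0.040 and were not called, although the first was with quantile normalization (0.35, adjusted p = 0.0355) or with LNA-miR-197 left out (0.36, adjusted p = 0.0372). PC14CDDP was below PC14 at the third probe by -0.88, a call lost after normexp background correction (-0.29) and with NC, pre-miR-197 or LNA-miR-197 left out. In each of the 4 transfection contrasts, limma and the methods' t-test called 0 of the 3 PVR probes, and 0 had an unadjusted p under 0.05 by either.

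LGALS9, which encodes galectin-9, differed between its probes. LGALS9 has near-identical copies in the genome, and a further probe with an LGALS9 accession carried the name LGALS9C and was not included, so the LGALS9 values may hold signal of these copies. The first LGALS9 probe read 13.6% in A549 after NC, 12.9% after pre-miR-197, 10.2% after LNA-NC and 9.23% after LNA-miR-197. In PC14 this LGALS9 probe gave 10%, 9.06%, 7.07% and 6.96%, and in PC14CDDP it gave 9.58%, 10.6%, 7.94% and 8.16%. In every line the LNA transfections were lower than NC and pre-miR-197. The second LGALS9 probe went the other way. It read 2.79% after NC, 3.13% after pre-miR-197, 7.39% after LNA-NC and 4.69% after LNA-miR-197 in A549. Its PC14 values were 4.46%, 5.89%, 7.82% and 7.14% in the same order, and its PC14CDDP values were 2.92%, 2.83%, 6.31% and 4.74%. In each line both LNA transfections were higher than NC and pre-miR-197, with LNA-NC the highest.

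The control transfections were compared with each other as a background for the others. LNA-NC was above NC for the second LGALS9 probe by 1.11 (SE 0.16, 95% interval 0.74 to 1.48), or 2.16-fold, with an adjusted p of 0.0344 and ratios of 1.41, 0.81 and 1.11 by line. It was the 1 of 15 probes called, beside 0.46% of all probes tested, and the median log2 difference was -0.077 over the 15 probes and -0.042 over all. The call held under 4 of 13 alternatives, the deposited values, which repeat the main fit, among them. It did not hold with any line left out, where the difference was 0.96 to 1.26, nor with normexp background correction, where it was 0.36 (adjusted p = 0.132). The first LGALS9 probe was below NC by -0.40 (95% interval -0.62 to -0.18, adjusted p = 0.132), in 3 of 3 lines, and the third (A_21_P0011535, chr17:25969369-25973575), which read 3.01% to 6.64%, differed by 0.025 (adjusted p = 0.972). For LNA-miR-197 the control therefore sets the sign at the second LGALS9 probe, which was -0.40 against LNA-NC (adjusted p = 0.15) and 0.71 against NC (adjusted p = 0.0261). At the first probe it sets the call, with -0.041 against LNA-NC (adjusted p = 0.821) and -0.44 against NC (adjusted p = 0.0237). Against NC these probes were thus called in opposite directions.

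Between lines the LGALS9 probes differed in sign as well. A549 was above PC14 by 0.47 for the first probe (SE 0.083, adjusted p = 0.00109) and below it by -0.57 for the second (SE 0.14, adjusted p = 0.00611). PC14CDDP was below PC14 by -0.64 for the second (SE 0.14, adjusted p = 0.00514) and by -0.47 for the third (SE 0.17, adjusted p = 0.0458), whereas the first gave 0.14 (adjusted p = 0.202). Both calls of the second probe were lost after normexp background correction, at -0.075 (adjusted p = 0.411) for A549 and -0.15 (adjusted p = 0.133) for PC14CDDP, with the methods' t-test and with no block. The call of the first was lost with the methods' t-test (adjusted p = 0.0736). The call of the third probe held under 2 of 13 alternatives, the deposited values among them, and under none that left out a transfection.

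**Figure D2:**
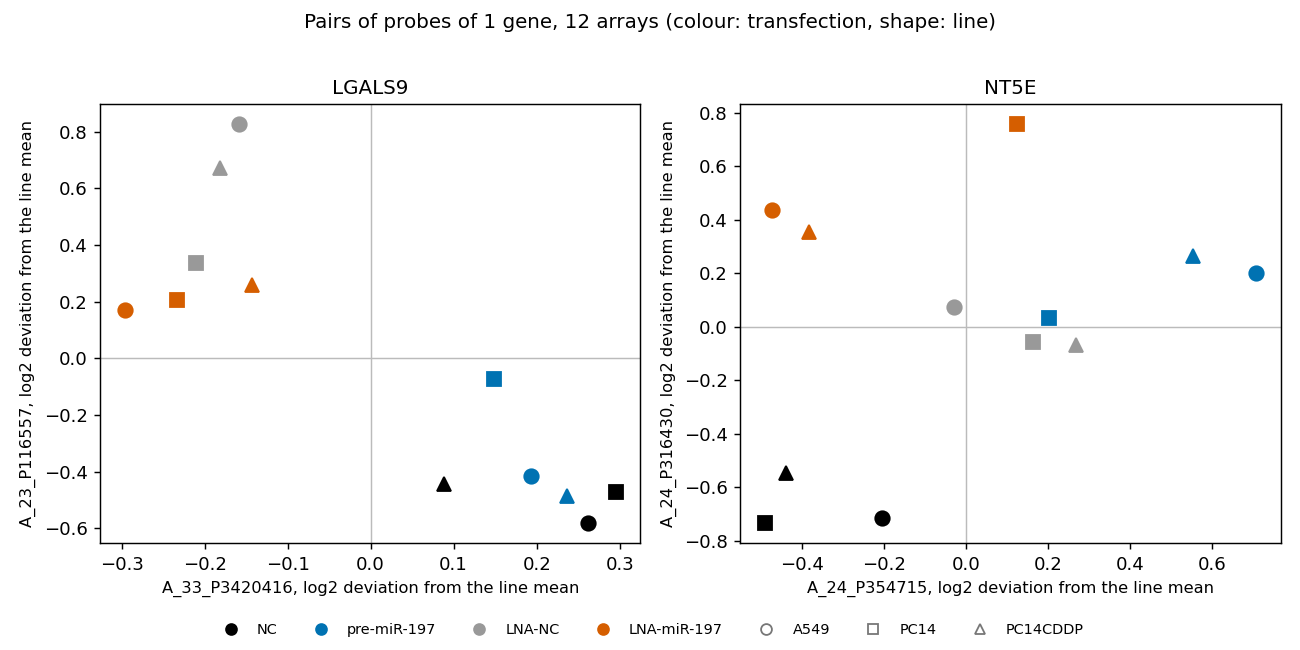
First and second probes of LGALS9 and of NT5E plotted against each other (both axes, log2 deviation from the mean of the line), with 1 point per array, transfections by color and lines by shape. The LGALS9 probes run in opposite directions (Pearson's r -0.84 over 12 arrays after the line means were subtracted), whereas r was 0.37 for the NT5E probes.

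TNFRSF14, the ligand of BTLA, was highest in A549 by its first probe (chr1:2493038-2493097). TNFRSF14 read 40% after NC, 46.8% after pre-miR-197, 36.5% after LNA-NC and 37% after LNA-miR-197 in A549. PC14 ranged from 15.5% to 18.9% and PC14CDDP from 16.4% to 18.8%, below every A549 array and overlapping each other. A549 was above PC14 by 1.23 (SE 0.083, adjusted p = 3.98e-06), and PC14CDDP and PC14 differed by 0.050 (95% interval -0.14 to 0.24, adjusted p = 0.659). The second TNFRSF14 probe (chr1:2495144-2495203) read 4.29% in A549 after NC, 1.63% after pre-miR-197, 5.43% after LNA-NC and 11.4% after LNA-miR-197. In PC14 it read 13.3%, 5.55%, 11.2% and 7.16%, and in PC14CDDP it read 6.09%, 1.98%, 4.7% and 2.43%. The pre-miR-197 array was the lowest of the 4 in each line, and in A549 and PC14CDDP it was not well above background. Between lines the second probe went the other way, A549 being below PC14 by -0.94 (adjusted p = 0.0799), which passed with quantile normalization (-1.20, adjusted p = 0.0391) and with LNA-miR-197 left out (-1.48, adjusted p = 0.00058). The log2 difference of pre-miR-197 from NC at this probe was -1.42 (SE 0.49, 95% interval -2.55 to -0.30), with ratios of -1.39, -1.26 and -1.62, and its adjusted p of 0.227 did not pass. The first probe gave 0.14 (adjusted p = 0.527) for the same contrast. PC14CDDP was below PC14 at the second probe by -1.36 (SE 0.42, adjusted p = 0.0286), a call that held under 7 of 12 alternatives and was lost with NC, pre-miR-197 or LNA-NC left out. The third probe (chr1:2496488-2496547) read 0.32% to 1.28% and was well above background on 1 array.

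NT5E, the adenosine-producing enzyme, was higher in PC14CDDP than in both other lines. For the first NT5E probe A549 read 70.8% after NC, 133% after pre-miR-197, 79.9% after LNA-NC and 58.7% after LNA-miR-197. PC14 values of NT5E were 149%, 241%, 235% and 228% in this order. NT5E in PC14CDDP read 248%, 493%, 404% and 257%. The lines did not overlap, with A549 lowest and PC14CDDP highest, and pre-miR-197 gave the highest value in each line. The second NT5E probe read 29.4%, 55.5%, 50.8% and 65.4% in A549. It gave 30.9%, 52.7%, 49.4% and 87% in PC14, and 92.2%, 162%, 128% and 172% in PC14CDDP. At this probe NC was the lowest and LNA-miR-197 the highest array in each line, and all PC14CDDP arrays were above all others.

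PC14CDDP was above PC14 by 0.68 for the first NT5E probe (SE 0.18, adjusted p = 0.0126) and by 1.39 for the second (SE 0.12, adjusted p = 3.97e-05), the latter 2.62-fold. The call of the first held under 9 of 14 alternatives and was lost with NC, pre-miR-197 or LNA-NC left out, and that of the second held under all 13 alternatives that gave a value. Against A549 the differences were 2.04 (SE 0.18, adjusted p = 1.41e-05) and 1.48 (SE 0.12, adjusted p = 8.33e-06). A549 and PC14 differed by -1.36 at the first probe (adjusted p = 0.000183) and by -0.092 at the second (95% interval -0.36 to 0.18, adjusted p = 0.507).

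After pre-miR-197 NT5E was above NC in 3 of 3 lines at both probes, without passing the test. The first NT5E probe gave 0.87 (SE 0.20, 95% interval 0.40 to 1.33, adjusted p = 0.122), with ratios of 0.91, 0.69 and 0.99. The second gave 0.83 (SE 0.13, 95% interval 0.52 to 1.14, adjusted p = 0.0690), with ratios of 0.92, 0.77 and 0.81. Both passed after normexp background correction, at 0.83 (adjusted p = 0.0423) and 0.70 (adjusted p = 0.0169), and with a trend and robust prior. LNA-NC was above NC at both as well, by 0.51 (adjusted p = 0.336) and 0.65 (adjusted p = 0.0940). After LNA-miR-197 against LNA-NC the probes parted, with -0.38 (95% interval -0.85 to 0.089, adjusted p = 0.271) for the first and 0.53 (95% interval 0.22 to 0.85, adjusted p = 0.0502) for the second. The second passed after normexp background correction (0.455, adjusted p = 0.0210), with the filter on all arrays (adjusted p = 0.0236) and with a trend and robust prior (adjusted p = 0.0241). Against NC the second gave 1.18 (adjusted p = 0.00597).

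Over the set, A549 differed from PC14 in 8 of 15 probes, 3 higher and 5 lower, beside 67.4% of all probes, and the median log2 difference was -0.077 over the 15 probes and 0.046 over all. PC14CDDP differed from A549 in 11 of 15, 6 higher (the second CD274 probe among them) and 5 lower, beside 70.1% of all probes, with medians of -0.072 and -0.024. The count against PC14 was thus below the share of all probes, and the count against A549 was near it.

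**Figure D3:**
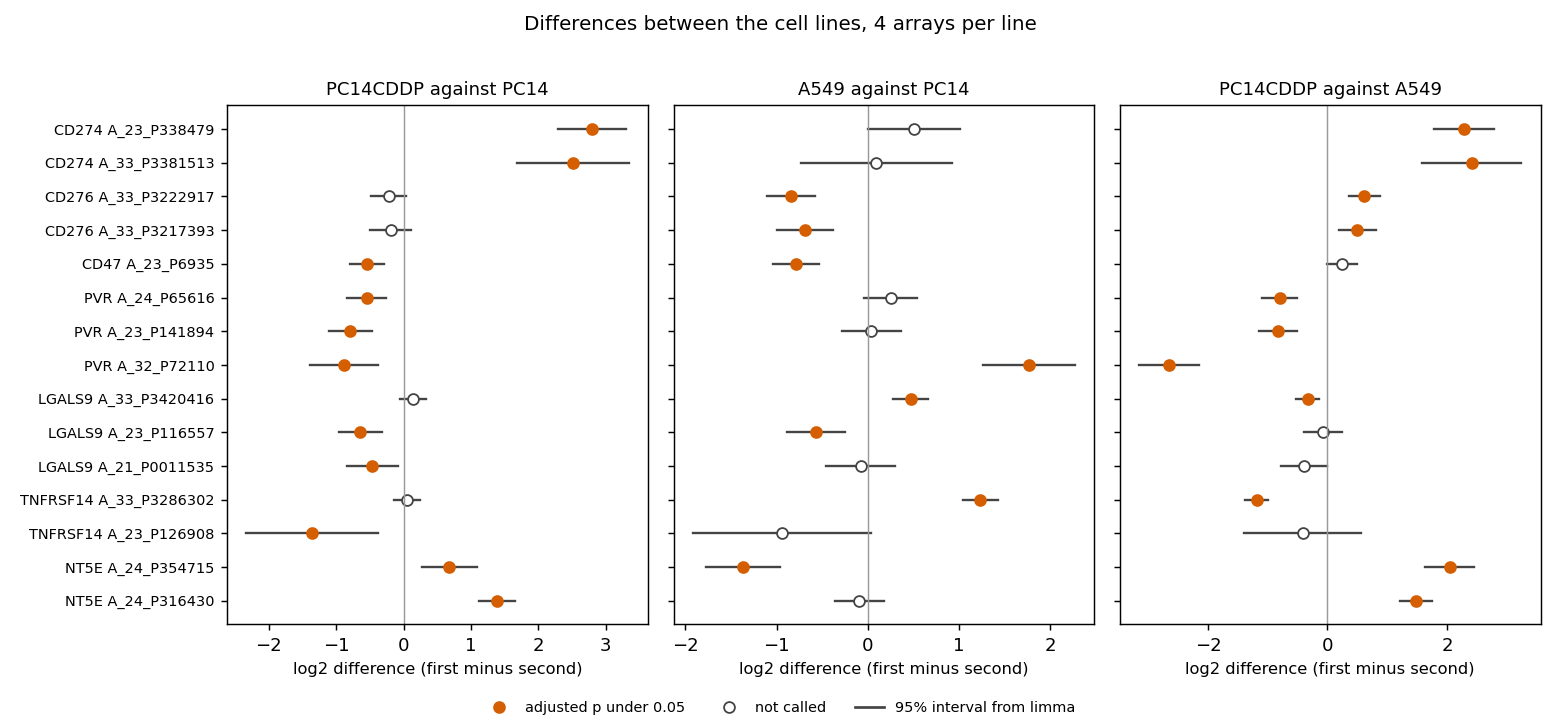
Log2 difference between lines for each tested probe (horizontal axis) with its 95% interval from limma, for PC14CDDP against PC14, A549 against PC14 and PC14CDDP against A549; the vertical axis lists the probes and filled points were called. The CD274 probes lie at 2.79 and 2.51 for PC14CDDP against PC14, and the PVR probes lie between -0.55 and -0.88. The second CD274 probe was tested only because of its signal in PC14CDDP, so its differences for that line are a description.

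Probes of 1 gene tracked each other unevenly, which is given as a description over 12 arrays that share lines and slides. Pearson's r was 0.93 for the CD274 pair and 0.65 after the mean of each line was subtracted, and 0.88 and 0.74 for CD276. It was 0.91 and 0.67 for the first and second PVR probes, 0.83 and 0.13 for the first and the third, and 0.64 and -0.30 for the second and the third. It was 0.69 and 0.37 for NT5E, -0.24 and -0.58 for TNFRSF14 and -0.76 and -0.84 for the first and second LGALS9 probes. For LGALS9 the third probe had 0.15 and 0.22 with the first and 0.26 and 0.006 with the second. The genes most like the first CD274 probe over the 12 arrays, among 18478 with a probe well above background on all of them, were THUMPD3 (r 0.99), TSN, RNMTL1, PLAA and YKT6 (each 0.98), where the median gene had 0.022. After the line means were subtracted they were PIGH (r 0.99) and LOC220729, PRPF4B, KIAA0317 and SNX11 (each 0.98), where the median was -0.10.

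Genes that act on PD-L1 or CD47 were examined as a list of 20, all tested with 1 probe each, the brightest. limma and the methods' t-test called 0 of the 20 in each transfection contrast. At an unadjusted p under 0.05 limma found 5 of them for the precursor and 2 for the inhibitor, where the methods' t-test found 0 and 1, and 15.8% and 27.5% of all probes had such a p by limma. Between PC14CDDP and PC14, 5 were higher and 7 lower, beside 48.8% of all probes called, with a median difference of 0.022. SPOP, an adaptor of the ubiquitin ligase that degrades PD-L1, was higher by 1.42 (adjusted p = 1.4e-05), and CKS1B, a small partner of cyclin-dependent kinases, by 0.87 (adjusted p = 7.67e-05). The hypoxia factor HIF1A was lower, at -1.60 (adjusted p = 2.46e-05), as was CMTM4, which keeps PD-L1 at the cell surface, at -1.01 (adjusted p = 0.00142). STAT3 was lower as well, at -0.62 (adjusted p = 0.0102), and was added after its value was seen.

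Of 15 receptors and partners of the ligands, 7 had a probe above background on enough arrays, and 4 of them were lower and 0 higher in PC14CDDP than in PC14, beside 48.8% of all probes, with a median of -0.69. They were the adenosine receptors ADORA2A, at -3.36 (adjusted p = 0.000115), and ADORA2B, at -1.44 (adjusted p = 6.24e-05), THBS1, a secreted ligand of CD47, at -1.31 (adjusted p = 0.000788), and SIRPA, the receptor of CD47, at -0.46 (adjusted p = 0.0364). For these genes and the further ligands below, detection by line is not given. A large difference may therefore include readings at background in a line. SIRPA was also the one of the 7 called after LNA-miR-197 against LNA-NC, beside 7.99% of all probes tested. It was at -1.003 (adjusted p = 0.0233), with ratios below 0 in all 3 lines. CD226, the activating receptor of PVR, was the one called for LNA-NC against NC, beside 0.46% of all probes tested. Its probe was well above background on 4 of 12 arrays. The methods' t-test called 0 of the 7 in both contrasts.

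Of 18 further ligands and related genes, 17 had a probe and 15 were tested, of which 3 were higher and 7 lower in PC14CDDP than in PC14, beside 48.8% of all probes, with a median of -0.30. NECTIN3, a nectin, was higher by 3.95 (adjusted p = 2.24e-07). CD24, the ligand of SIGLEC10, was lower at -3.69 (adjusted p = 5.51e-07), as were galectin-3 (LGALS3) at -2.69 (adjusted p = 1.11e-05) and CD86 at -2.28 (adjusted p = 0.000103). NECTIN2, which shares TIGIT and CD226 with PVR, was lower like PVR, at -0.66 (adjusted p = 0.00036), and was added after its value was seen. Of 5 further genes of adenosine metabolism, ENPP1 at 0.76 (adjusted p = 0.000212) and the transporter SLC29A1 at 0.57 (adjusted p = 0.00219) were higher in PC14CDDP than in PC14 and 0 were lower, beside 48.8% of all probes called. In the transfection contrasts limma and the methods' t-test called 0 of these 5 genes, and 1 in each had an unadjusted p under 0.05 by limma, where the methods' t-test found 0 or 1 and 13.3% to 27.5% of all probes had such a p by limma.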

How the data were processed

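Messenger RNA was measured on 12 Agilent 60-mer arrays with 1 dye. The authors scanned them with Agilent Feature Extraction 10.7.3.1 (per the submitters' processing notes) and deposited intensity values per spot, among them a processed signal that is background-subtracted and not scaled between arrays, and the deposited value table equals it on 62976 of 62976 spots. The paper's main text gives Student's t-test for experiments in general and states no normalization of the arrays. No further columns belonged to other samples (0).

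Control and outlier spots were left out, spots of 1 probe were averaged, and each array's 75th percentile was subtracted from the processed signal after log2 transformation. Missing values removed 106 of 50599 probes, and probes well above background on at least 3 arrays were tested (33712). The 12 arrays were fitted together in limma 3.58.1 (R 4.3.3), with terms for transfection and cell line, eBayes, and adjustment by Benjamini-Hochberg across all tested probes. The line pairs the samples: deviations from the transfection means correlated within a line with r of 0.929 to 0.947 in A549, 0.879 to 0.903 in PC14 and 0.845 to 0.897 in PC14CDDP. Whether the transfections of a line were made on separate occasions is not given in the sources used here, so p-values measure the spread between these arrays. limma was tested on simulated arrays.

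The members and lists were chosen with earlier results of these data known. All probes of the 9 genes are described, other genes are the up to 4 of a list with the largest called difference, and likeness to CD274 was ranked by Pearson's r. Probe positions are those of the files, on hg19, with no annotation of exons or UTRs used here. Promoters and the miRNA are from RefSeq tables of GRCh38.p14. One marker of the leukocyte list is not reported here. The number of arrays limits the precision. Alternatives were quantile normalization, normexp with an offset of 50, the deposited table, other filters on dim probes, 1 probe per gene, the methods' t-test, a trend and robust prior, only the arrays compared, no block, the slide as a block, another control, and each line or transfection left out. The deposited table holds the same signals and repeats the main fit, so a call kept there adds nothing. Several others change the test and not the difference. Files were read and plots drawn in Python 3.11.15 with pandas 2.3.3, numpy 2.4.6 and matplotlib 3.10.9.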

Additional observations from a re-analysis of the deposited data

Results flagged for a closer look

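Of 45 combinations of a tested probe and a transfection contrast, the log2 ratios of the lines differed in sign in 25. In 5 of these, listed here, the ratio was at least 1.2-fold above 1 in a line and at least as far below it in another, with every array of the contrast well above background. With 1 array per line and transfection these differences could not be tested. The difference between the highest and the lowest log2 ratio over the lines was 0.749 for the second PVR probe and 1.06 for the third LGALS9 probe after pre-miR-197 against NC. It was 1.324 for the third PVR probe and 2.022 for the second TNFRSF14 probe after LNA-miR-197 against LNA-NC, the latter with 1.07 in A549, -0.64 in PC14 and -0.95 in PC14CDDP. For LNA-NC against NC it was 0.714 at the second TNFRSF14 probe.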

How the results depend on the processing

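The array number is the main limit, with 3 lines per transfection, of which PC14CDDP derives from PC14, and no repeat within a line. Probes near background (the second of CD274 in A549 and PC14, the second of TNFRSF14) have no firm ratio, and normexp draws their differences towards 0. Of the calls, 0 of 1 after LNA-miR-197, 0 of 1 for LNA-NC against NC, 6 of 11 for PC14CDDP against PC14, 6 of 8 for A549 against PC14 and 9 of 11 for PC14CDDP against A549 held under all alternatives that gave a value. The second of CD274, tested only because of its signal in PC14CDDP, is among those held in both comparisons of that line. The cell line, which pairs the arrays, is a block in the fit.

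Against NC, pre-miR-197 called 0 probes, and 2 with normexp, 1 with the filter on all arrays and 2 with the trend and robust prior, each of them NT5E. The inhibitor minus the precursor called 0, and 1 under each of the same settings. LNA-miR-197 called 1 probe, and 0 with no filter, the methods' t-test, only the arrays compared, no line block, the slide as a block or any line left out (0 to 0), 2 with the filter on all arrays or the trend and robust prior, and 5 with NC as the control. With normexp the 1 probe it called was the second of NT5E and not the first of CD274. LNA-NC against NC called 1, and 0 with normexp, no filter, 1 probe per gene, the methods' t-test, only the arrays compared, no line block, the slide as a block or any line left out (0 to 0), and 2 with the trend and robust prior. PC14CDDP against PC14 called 11, and 4 of 7 with 1 probe per gene, 7 with the methods' t-test, 7 with no transfection term and 7 to 9 with a transfection left out. With 1 probe per gene A549 against PC14 called 5 and PC14CDDP against A549 called 6, of 7. The cause of these changes was not tested.

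The alternatives gave 1400 values for 105 log2 differences, of which 47 values of 34 differences changed sign, 0 of them for a difference called in the main fit. Of the changed values 1 was itself called, that of the second of LGALS9 after LNA-miR-197 with NC as the control (adjusted p = 0.0261). With normexp the changed values were -0.001 at the second of PVR, -0.004 at the second and -0.017 at the third of LGALS9 after pre-miR-197, 0.012 at the first of LGALS9 for inhibitor minus precursor, and 0.026 at the third of LGALS9 for A549 against PC14. With quantile normalization they were 0.012 for the precursor and 0.005 for the inhibitor at the first of LGALS9, -0.13 at the second of CD274 for A549 against PC14 and 0.21 at the second of LGALS9 for PC14CDDP against A549. With NC as the control of LNA-miR-197 they were -0.007 at CD47, 0.71 at the second of LGALS9 and 0.13 at the first of NT5E. The others came from leaving out a line or a transfection. After pre-miR-197 the ranges were -0.65 to 0.48 for the second of CD274, -0.17 to 0.089, -0.16 to 0.21 and -0.17 to 0.07 for the first, the second and the third of PVR, and -0.11 to 0.039 and -0.19 to 0.34 for the first and the third of LGALS9. After LNA-miR-197 they were -0.27 to 0.006 for the first of CD276, -0.044 to 0.26 for CD47, -0.003 to 0.24 and -0.65 to 0.01 for the first and the third of PVR, -0.081 to 0.008 for the first of LGALS9, and -0.076 to 0.026 and -0.80 to 0.21 for the first and second of TNFRSF14. For inhibitor minus precursor they were -0.101 to 1.49 for the second of CD274, -0.014 to 0.21 and -0.26 to 0.13 for the first and second of CD276, -0.007 to 0.51 for the second of PVR and -0.088 to 0.027 for the first of LGALS9. For LNA-NC against NC they were -0.1 to 0.305 for the second of CD274, -0.12 to 0.033, -0.036 to 0.16 and -0.42 to 0.034 for the first, the second and the third of PVR, -0.038 to 0.095 for the third of LGALS9 and -0.31 to 0.046 for the second of TNFRSF14. Between lines they were -0.003 to 0.097 for the first of TNFRSF14 in PC14CDDP against PC14, -0.43 to 0.39, -0.065 to 0.14 and -0.15 to 0.014 for the second of CD274, PVR and NT5E in A549 against PC14, and -0.72 to 0.19 for the second of TNFRSF14 in PC14CDDP against A549.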
